A study of Mus musculus with 60 samples.

Results

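Cytosolic ribosomal protein (RP) genes were followed across all 20 groups of an RNA sequencing study of mouse fibroblasts. The members are protein-coding genes whose mouse symbol has the form of an Rpl or Rps gene with a number, together with Rpsa, Rplp0, Rplp1 and Rplp2, while the Rps6k kinases were excluded. Of 56980 gene identifiers in the count tables, 84 matched and 81 had a mean count of at least 10 over all libraries. These comprise 31 proteins of the small subunit, 45 of the large subunit and 5 paralogs (Rps27l, Rpl22l1, Rpl39l, Rpl7l1 and Rps4l). The genes just outside the limit were Rpl24 (mean count 5.93), Rpl3l (1.73) and Rpl10l (0.0167), and those just inside were Rps10 (21.3) and Rpl39l (158).

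The reprogramming libraries (36) came from tail tip fibroblasts of D/KO cells (4FJ_ERCC1_(d/-), male, 8 weeks) and WT cells (4FJ_(+/-)_OCT4-GFP, female, 22 weeks). Both carry the Col1a1-tetO-OKSM transgene and ROSA26-M2-rtTA, so doxycycline (dox, 2 µg/ml) induces Oct4, Klf4, Sox2 and Myc, and they were taken at days 0, 2 and 4 with or without VC, a mix of ascorbic acid (50 µg/ml) and CHIR99021 (3 µM). The inhibitor libraries (24) held ERCC1 d/- cells (female, 4 weeks) left untreated or given Repsox, Vactosertib, A83-01 or DMH-1, untreated ERCC1 +/+ cells from tail tip and from skin (female, 14 weeks), and 4FJ OCT4-GFP cells labelled TGFB (female, 22 weeks). All are on a C57BL6J|FVB background, and each group had 3 libraries. The D/KO cells hold a single truncated Ercc1 allele. The D/KO and WT reprogramming cells differ at once in genotype, sex, age and line, which cannot be told apart. Every library of days 2 and 4 had dox and no day 0 library did, so dox and time in culture cannot be told apart either. The labels do not say that the libraries of a group came from separate cultures or animals, so p-values measure the spread between these libraries, which may be technical.

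The cytosolic ribosome is built from a small subunit, which decodes the mRNA, and a large subunit, which joins the amino acids. Each subunit is an rRNA core with a fixed set of RPs, so the RP genes of a cell are usually expressed together and at high level. Their mRNAs start with a tract of pyrimidines, the terminal oligopyrimidine (TOP) motif, through which mTOR controls their translation. Myc raises transcription of RP genes and of the factors that assemble ribosomes. A few RPs have paralogs that can replace them in a ribosome in some tissues or stress states, such as Rps27l, a p53 target, and Rpl39l, best known from the testis.

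RP promoters carried the TOP start more often than promoters at large. RefSeq promoters (GRCm38.p6, 250 bases before to 50 after each annotated start) were found for 60 of the 81 members, with 71 promoters, among 32851 in all. A C at the annotated start followed by at least 4 pyrimidines (C or T) stood in 18.3% of the members' promoters against 2.51% of all. With the run allowed to begin up to 3 bases before or after the annotated start, the shares were 36.6% and 11.5%. The ETS motif CCGGAAG, on either strand, stood in 38% against 8.86%. The YY1 motif AAGATGGC, on either strand, stood in 11.3% against 2.75%. The SP1 motif GGGGCGGGG, also on either strand, was not commoner in the members (9.86% against 11.4%), and the TATA box was found in 1.41% against 1.99%. Windows from 70 bases before to 20 after the start are shown for members that the results turn on, with whole motifs in capitals. The first 5 show the TOP start of core RP genes, and the last 3 set Rps27 beside the paralogs Rps27l and Rpl22l1, which have no match at the annotated base itself. In those paralogs such a run begins 1 and 3 bases after it, so the difference rests on where the start is annotated.
Rps6 (chr4:86857348-86857437, minus strand): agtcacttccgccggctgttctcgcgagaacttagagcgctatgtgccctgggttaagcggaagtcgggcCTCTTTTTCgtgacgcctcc
Rpl15 (chr14:18270967-18271056, minus strand): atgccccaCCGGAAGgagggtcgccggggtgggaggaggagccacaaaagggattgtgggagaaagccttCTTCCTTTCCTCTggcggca
Rps18 (chr17:33955646-33955735, minus strand): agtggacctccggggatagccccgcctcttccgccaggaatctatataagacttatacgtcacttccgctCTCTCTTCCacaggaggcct
Rpl28 (chr7:4792895-4792984, plus strand): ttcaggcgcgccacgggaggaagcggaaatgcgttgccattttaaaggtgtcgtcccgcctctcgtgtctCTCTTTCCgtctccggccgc
Rps15a (chr7:118116128-118116217, minus strand): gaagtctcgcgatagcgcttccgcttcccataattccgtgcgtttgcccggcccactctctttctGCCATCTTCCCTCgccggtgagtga
Rps27 (chr3:90213629-90213718, minus strand): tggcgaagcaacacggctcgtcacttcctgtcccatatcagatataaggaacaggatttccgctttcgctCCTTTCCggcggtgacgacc
Rps27l (chr9:66946016-66946105, plus strand): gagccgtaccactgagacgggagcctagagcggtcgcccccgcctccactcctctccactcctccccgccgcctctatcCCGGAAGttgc
Rpl22l1 (chr3:28805438-28805527, plus strand): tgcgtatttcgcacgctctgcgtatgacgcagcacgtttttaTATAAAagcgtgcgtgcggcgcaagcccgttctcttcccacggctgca
The run of capitals over the start of Rps15a holds a YY1 match that runs into the TOP tract, and the capitals upstream in Rpl22l1 mark its TATA box, the only match to that motif among the members.

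The small and large subunits had similar median levels per length, given as TPM (transcript counts corrected for gene length and library total). The median over the reprogramming libraries was 1191 TPM for the small subunit, 1110 TPM for the large subunit and 118 TPM for the 5 paralogs. Rplp1, a stalk protein of the large subunit, stood highest at 11020 TPM, ahead of Rplp0, the base of the stalk, at 4607 TPM. The lowest were Rps10 at 2.04 TPM, Rpl39l at 32.6 TPM, Rpl7l1 at 87.5 TPM and Rpl13a at 101 TPM. Exon bases of 59 members overlap another gene, over 25% of them in 20 members. For Rps10, 23.8% of its exon bases lie under Gm15420 and Gm49804, and for Rpl13a 34% lie under genes that include the snoRNAs Snord33 and Snord35a. Levels of such members are uncertain, since how the counting treated shared bases is not given in the sources used here.

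Most core RP genes had similar profiles over the 12 reprogramming groups. As a description over those 12 group means, centred within each cell line, 66 of 76 core members had a Pearson r above 0.9 with the median core profile, and the median r was 0.953. Those means share libraries, depth and scaling across genes. The profile is the median of the other core members, and no other genes were set beside it. The count therefore does not show that the likeness is particular to RP genes. Rps10 (r = -0.12), Rps27l (r = 0.492) and Rps4l (r = 0.694) followed it least. The SD of group means on the log2 CPM scale was smallest for Rpl7l1 (0.25), Rps27 (0.26) and Rpl31 (0.26), and largest for Rpl29 (2.20), Rpl39l (1.65) and Rpl26 (0.75), the 3 members with the largest differences between the cell lines at day 0.

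The reprogramming libraries held 16538374 to 18484951 counts each and the inhibitor libraries 17102639 to 30599138. RP genes took 3.11% to 7.56% of the counts in the first set and 3.02% to 11.4% in the second. The share of counts in protein-coding genes under 1500 exon bases, leaving out RP genes, is given beside the RP share. By the deposited exon lengths, which sum over all transcripts of a gene, 26 of the 81 members fall under that limit and the median member has 1781 bases. In 19 of 20 groups the library with the highest RP share also had the highest share of these short genes. Replicate 1 of WT skin stood apart, with an RP share of 11.4% against 4.15% and 4.61% in the other 2 and a short gene share of 5.66% against 2.61% and 2.82%. Replicate 2 of Repsox did so too, with an RP share of 7.58% against 3.84% and 3.65%. Ercc1 itself ran from 8.04 to 18.6 CPM in D/KO and from 16.9 to 29.1 CPM in WT reprogramming libraries, and from 20.3 to 20.9 CPM in untreated D/KO against 13.3 to 21.7 CPM in WT tail tip libraries. The ranges overlap, and a count over the whole gene does not see a truncation, so it checks no label here. In bulk samples, fewer cells of a type and less RNA per cell cannot be told apart.

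**Figure D1:**
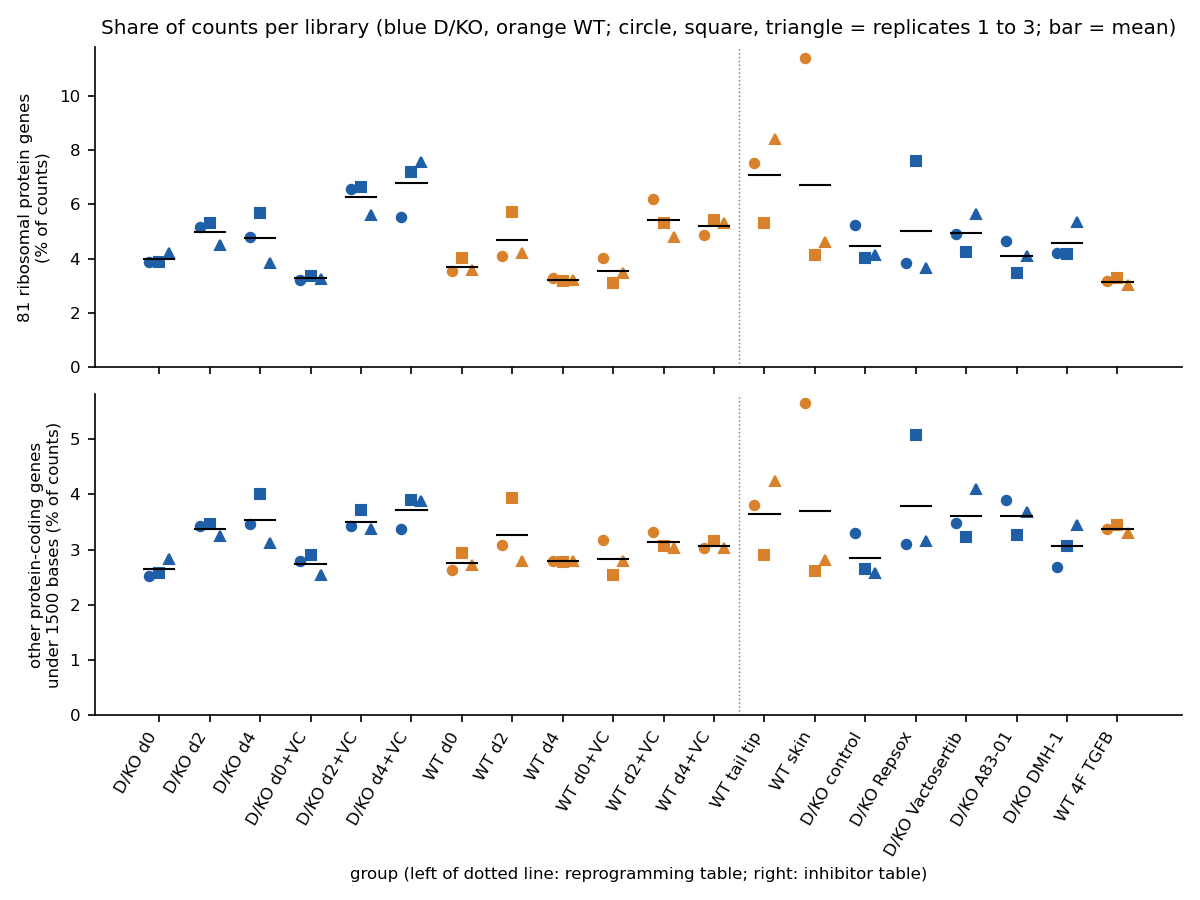
Share of counts in RP genes and in protein-coding genes under 1500 bases that are not RP genes (both in percent of a library's counts) for each library of the 20 groups, 3 points a group. The RP share of D/KO cells with dox and VC lies between 5.55% and 7.56% at day 4, above the 3.21% to 3.35% of their day 0 libraries, and replicate 1 of WT skin stands at 11.4%.

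With dox and VC, RP genes rose in D/KO cells almost as a whole. At day 4, 72 of 81 members were called higher and 0 lower (edgeR adjusted p under 0.05) where 27.9% of all 15832 genes tested were called higher and 26.2% lower. The median log2 fold change of the members was 0.65 against 0.01 over all genes. The rise took in 28 of 31 small subunit genes, 42 of 45 large subunit genes and 2 of 5 paralogs, and the RP share of counts went from 3.21%, 3.35% and 3.27% in the 3 day 0 libraries to 5.55%, 7.21% and 7.56%. These shares do not overlap, and their means differ by a ratio of 2.07. At day 2, 69 members were called higher and 0 lower (background 23.8% and 23.6%), with a median of 0.63 and an RP share of 5.62% to 6.65%.

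Rpl13a, a large subunit protein that also joins an interferon-induced block of translation, rose most at day 4 with VC. It had 43.8, 45.9 and 48.8 CPM in the 3 day 0 libraries with VC and 76.7, 107 and 112 CPM at day 4. The groups do not overlap, and the log2 fold change was 1.09 (SE 0.142, adjusted p = 4.11e-08). Rps25, which some viral and cellular mRNAs need to start translation from inside the message, had 296, 328 and 286 CPM at day 0 and 506, 628 and 686 CPM at day 4. All 3 day 4 libraries stood above the day 0 libraries (log2 fold change 1.00, SE 0.157, adjusted p = 1.41e-06). Rplp0, the stalk base and a common reference gene for qPCR, went from 1097, 1577 and 1056 CPM to 2049, 2645 and 2580 CPM. Its day 4 libraries also lay above every day 0 library (0.96, SE 0.176, adjusted p = 1.64e-05).

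Members with other roles rose as well. On the log2 scale at day 4 with VC, Rpsa, which doubles as a laminin receptor, rose by 0.93 and Rps18, another reference gene, by 0.93. Rps27a, made as a fusion with ubiquitin, rose by 0.81. Rps26, which lies at the exit of the mRNA channel, rose by 0.71, and Rpl10, which completes the large subunit in the cytoplasm, by 0.66. Rps6, the target of S6 kinase, rose by 0.65. Rpl5 and Rpl11, which bind Mdm2 when ribosome assembly fails, rose by 0.70 and 0.43. Rplp1 and Rplp2 rose by 0.57 and 0.51, and Rps19, the gene most often mutated in Diamond-Blackfan anaemia, by 0.49. The 9 members not called were Rps10 (-0.13), Rps27l (-0.03), Rpl41 (0.13), Rpl38 (0.24), Rps20 (0.25), Rpl22l1 (0.28), Rps28 (0.28), Rpl37a (0.38) and Rpl39l (0.39). Among the members with a promoter, 11 of 13 with the TOP start and 41 of 47 without it were called higher, with medians of 0.56 and 0.70. With the run allowed within 3 bases of the start these were 21 of 25 and 31 of 35, with medians of 0.56 and 0.71.

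Other values moved with this rise. The share of short non-RP genes was 1.35 times its day 0 value at day 4 with VC. With that share as a term in the fit, 11 members were called higher and 7 lower at day 4 with VC, and 23 higher and 2 lower at day 2 with VC. The share of all genes called in that fit is not given here, so these counts have no background beside them. The share itself differs between the groups, so the 2 terms cannot be fully told apart. Fibroblast marker genes (10 of 10 detected above 1 CPM in every group) summed to 183600 to 253200 CPM at day 0 with VC and to 33110 to 34280 CPM at day 4. Of 8 keratinocyte markers, 3 and 5 were above 1 CPM in those groups, the sums were 8.28 to 13.9 CPM and 402 to 530 CPM, and Krt15 was at 0 in both. Mitochondrial reads made up 0.469% to 1.05% of counts at day 0 with VC and 1.34% to 2.20% at day 4. The part of these in the RP result was not tested.

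Without VC, fewer RP genes were called in D/KO cells than with it, and how many turned on the processing. At day 2, 9 members were called higher and 0 lower (background 14.3% and 13.2%), with a median log2 fold change of 0.25, led among those called by Rpl35 (0.57), Rps4l (0.50) and Rpl36 (0.42). The 3 day 2 libraries had RP shares of 5.18%, 5.30% and 4.52%, above the 3.87%, 3.86% and 4.21% of day 0. At day 4, 5 members were called higher and 1 lower (background 18.3% and 18.7%), with a median of 0.14. Those called higher were Rpl32 (0.50), Rpl10 (0.43), Rpl36a (0.40), Rps4l (0.39) and Rpl22 (0.36). Rpl13a was the 1 called lower, with 59.0, 52.9 and 64.9 CPM at day 0 and 46.0, 53.7 and 37.1 CPM at day 4, and these ranges overlap (log2 fold change -0.37, adjusted p = 0.0375). The RP shares at day 4 were 4.79%, 5.70% and 3.84%, so replicate 3 lay just below all 3 day 0 libraries. With library totals 32 members were called higher at day 2 and 30 at day 4, with 0 lower (19.4% and 27% of all genes were then higher). With no filter on low counts 22 were higher at day 2, and 17 higher and 1 lower at day 4 (7.08% and 9.06% of all genes higher). A fit of only the 2 groups called 15 at day 2 and 1 at day 4, all higher. The day 2 count was 4 without day 0 replicate 1 and 2 without day 0 replicate 2, day 2 replicate 1 or day 2 replicate 2. The day 4 count was 21 higher without day 4 replicate 3, 3 lower and 0 higher without day 4 replicate 2, 1 without day 4 replicate 1 and 2 without day 0 replicate 1 or 2. When the share of short non-RP genes was a term, 24 members at day 2 and 57 at day 4 were called lower and 0 higher. The direction of the calls without VC thus changed with that term, and the share of all genes called in that fit is not given here. Keratinocyte markers were called higher in 5 of 6 tested and fibroblast markers lower in 6 of 10 at both days. The keratinocyte sums were 3.46 to 5.29 CPM at day 0, 31.04 to 42.3 CPM at day 2 and 65.1 to 77.96 CPM at day 4, with 2, 4 and 4 of 8 above 1 CPM and Krt5 and Dsg3 at 0 at day 0. The fibroblast sums were 80070 to 119000 CPM, 51310 to 53560 CPM and 37380 to 38980 CPM. Endothelial markers (5 of 5 above 1 CPM) summed to 586 to 710 CPM, 467 to 547 CPM and 327.5 to 345.4 CPM. They were called lower in 3 of 5 at day 2 and 4 of 5 at day 4, and higher in 1 at each. Mitochondrial reads were 0.257% to 0.722% of counts at day 0, 0.987% to 1.26% at day 2 and 1.10% to 1.42% at day 4, with no overlap between day 0 and the later days. The part of these in the RP values was not tested.

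**Figure D2:**
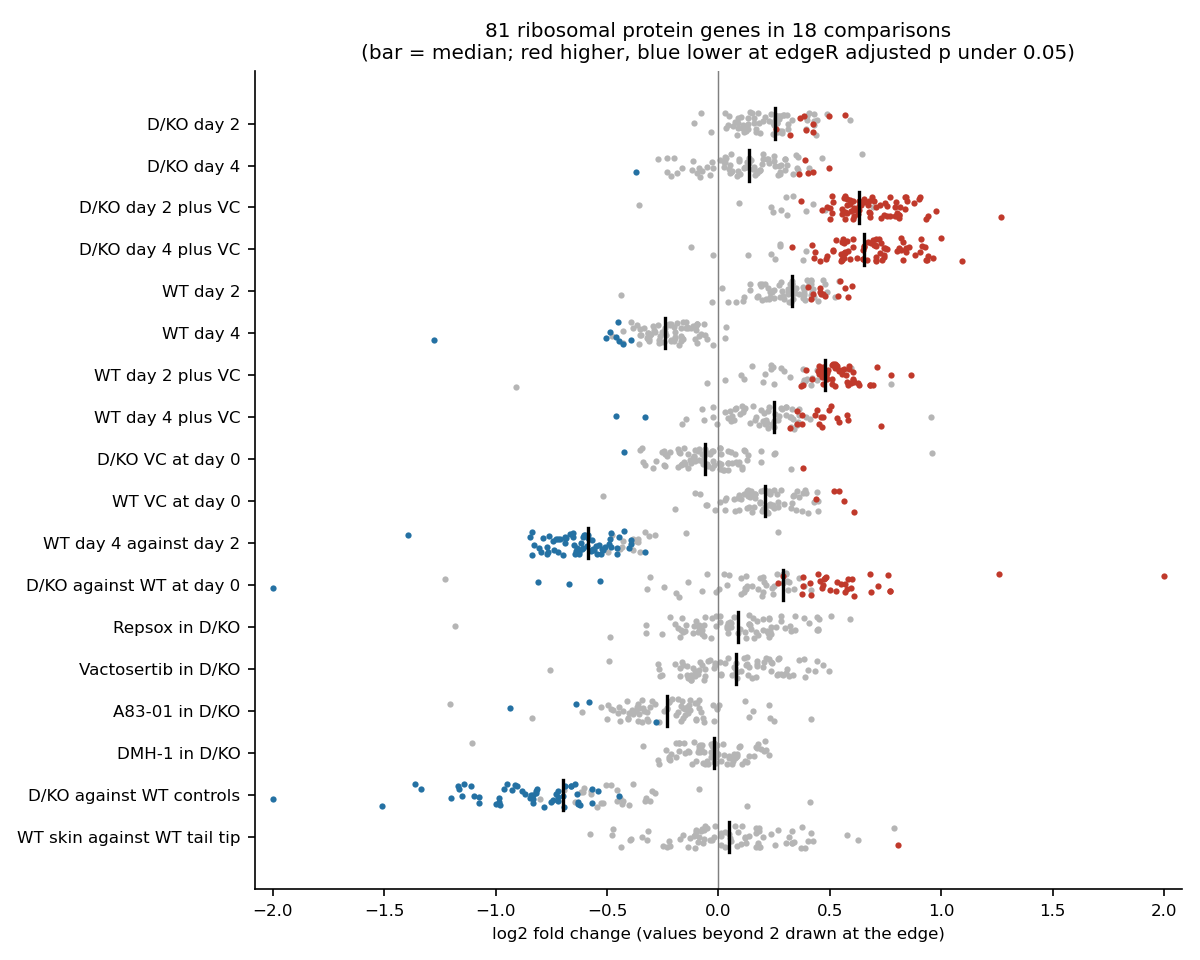
Log2 fold change of each of the 81 members (horizontal axis) in 18 comparisons, red where called higher and blue where called lower at an edgeR adjusted p under 0.05. Members lie mostly right of 0 in D/KO and WT cells with dox and VC (72 and 18 called higher at day 4, where 27.9% and 22.7% of all genes were, both counts changing with the processing) and left of 0 in the comparison of untreated D/KO with WT cells (53 called lower, against 18.9% of all genes).

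In WT cells with dox and VC, RP genes rose at day 2, and at day 4 the number called turned on the processing. At day 2, 54 members were called higher and 0 lower (background 13.8% and 13.7%), with a median of 0.48. Rpl13a (0.86, adjusted p = 1.09e-05) and Rps18 (0.69, adjusted p = 0.00073) were among them. The RP share was 6.20%, 5.30% and 4.81%, against 4.02%, 3.11% and 3.47% at day 0 with VC, and the groups do not overlap. At day 4, 18 members were called higher and 2 lower (background 22.7% and 22%), with a median of 0.25. Of the members, 72 of 81 had a positive log2 fold change, and the median over all genes was 0.03. Those called higher at day 4 numbered 61 with library totals (39.5% of all genes were then higher), 33 with no filter (11.1%), 35 in a fit of only the 2 groups (25.9%) and 51 with day 0 without VC as the baseline (20.3%). Their share thus stood near the background in the main fit and above it in these. Day 4 was not tested against day 2 with VC. Without day 2 replicate 1 the day 2 count was 17, and without day 0 replicate 2 it was 21. The day 4 count over both directions was 31 without day 0 replicate 1, 8 without day 0 replicate 2, 11 without day 0 replicate 3, 12 without day 4 replicate 2 and 11 without day 4 replicate 3. Fibroblast markers (10 of 10 above 1 CPM) summed to 155600 to 171400 CPM at day 0 with VC and 81430 to 92250 CPM at day 2. Keratinocyte markers summed to 40 to 44.01 CPM and 80.02 to 90.8 CPM, with 3 and 4 of 8 above 1 CPM and Krt15 and Dsg3 at 0 in both, and macrophage markers to 73.6 to 121 CPM and 60.3 to 65.9 CPM, with 5 of 6 above 1 CPM. At day 4 with VC, fibroblast markers summed to 60940 to 72060 CPM, keratinocyte markers to 68.8 to 88.3 CPM and macrophage markers to 45.7 to 47.01 CPM. Mitochondrial reads were 0.919% to 0.989% of counts at day 0 with VC and 1.61% to 2.32% at day 4. The part of these in the RP result was not tested.

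Rpl4, a large subunit protein that lines the exit tunnel, had the largest log2 fold change among the members called in WT cells at day 4 with VC. It had 1163, 943 and 984 CPM at day 0 with VC and 1748, 1673 and 1697 CPM at day 4, with no overlap (log2 fold change 0.73, adjusted p = 7.56e-08). Rpl3, next to the peptidyl transferase centre, and Rpl10a followed, both with a log2 fold change of 0.58. The 2 members called lower were both paralogs. Rps27l went from 116, 93.4 and 104 CPM to 67.4, 81.9 and 78.1 CPM (-0.46, adjusted p = 0.0172), with no overlap, and Rps4l had a log2 fold change of -0.33 (adjusted p = 0.0344).

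Without VC, WT cells had more RP mRNA at day 2 than at day 4. At day 2, 13 members were called higher and 0 lower than at day 0 (background 6.26% and 4.3%), with a median of 0.33, led by Rpl38 (0.60), Rpl36 (0.58) and Rps9 (0.57). At day 4, 0 were called higher and 8 lower (background 11.7% and 12.8%), with a median of -0.24. Set directly against day 2, 65 members were lower at day 4 and 0 higher (background 12.3% lower and 9.25% higher), with a median of -0.58. Short non-RP genes had a median of -0.50 in this comparison, with 38.6% called lower, and 30 members were lower when their share was a term in the fit. Protein-coding genes over 8000 exon bases took 20.6% to 25.6% of counts at day 2 and 27.2% to 27.6% at day 4, and mitochondrial reads 0.479% to 1.14% and 1.47% to 1.58%, with no overlap in either. The part of these in the RP difference was not tested. The RP share was 3.537%, 4.013% and 3.596% at day 0, 4.10%, 5.73% and 4.21% at day 2, and 3.29%, 3.19% and 3.21% at day 4. Each day 4 library was below each library of the other 2 days. Replicate 2 of day 2 was the highest of the 9, and without it 19 members were lower at day 4 than at day 2. That library also had less of the induced factors, with 12.5 CPM of Pou5f1 against 41.5 and 48.8 CPM in the other 2, and 25.3 CPM of Sox2 against 57.8 and 59.7 CPM, and the part of this in the result was not tested.

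Rpl13a had 42.0, 58.3 and 41.9 CPM in WT cells at day 2 and 26.4, 26.7 and 26.4 CPM at day 4, with no overlap (log2 difference -0.84, adjusted p = 0.000134). Rpl39l (-1.39) and Rpl41 (-0.84), the smallest RP, differed by as much or more. Rpl39l lay near the floor in WT cells, at means of 1.075, 1.161 and 0.438 CPM at days 0, 2 and 4. Rplp0 (-0.29), Rpl7l1 and Rps10 were among the members not called. The 8 members lower at day 4 than at day 0 included Rpl39l (-1.28), Rpl22l1 (-0.51), Rps27l (-0.49), Rpl41, Rpl27a, Rps15a and Rpl23a, so 3 of the 5 paralogs were among them. Rpl22l1 had 52.3, 59.7 and 53.2 CPM at day 0 and 33.6, 40.1 and 42.8 CPM at day 4, with no overlap (adjusted p = 0.0281). The day 4 count was 0 without day 0 replicate 2 or day 4 replicate 2, 1 without day 4 replicate 1 or 3, 3 without day 0 replicate 3 and 4 without day 0 replicate 1. It was 59 in a fit of only the 2 groups and 26 with no filter, all lower. The shares of all genes called lower in those fits, and in the fit with the short gene share below, are not given here. These counts therefore have no background beside them. The day 2 count was 0 without day 0 replicate 3 or day 2 replicate 2, 1 without day 0 replicate 1, 6 without day 2 replicate 3 and 29 without day 2 replicate 1. It was 37 with no filter (3.4% of all genes higher) and 20 by DESeq2, all higher. Under the fit with the short gene share, 3 members were called lower and 0 higher at day 2, and 37 lower at day 4.

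**Figure D3:**
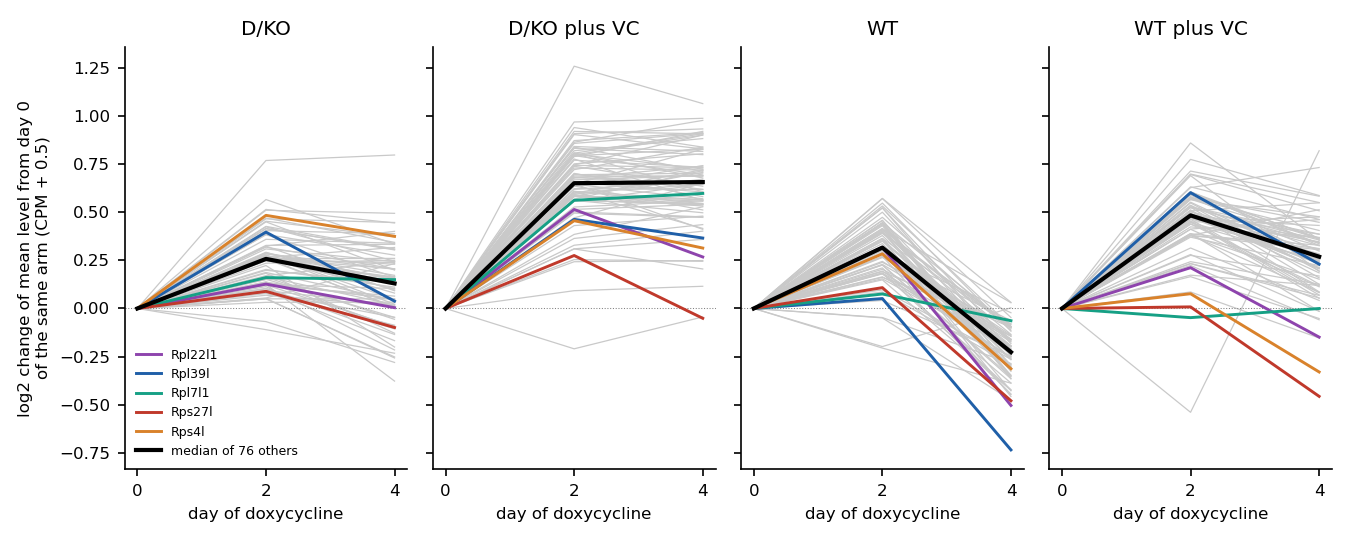
Change of each core RP gene (grey), their median (black) and the 5 paralogs (coloured) from day 0 on the log2 scale (vertical axis) over days 0, 2 and 4, in 4 panels for D/KO and WT cells without and with VC. The median at day 4 lies near 0.65 in D/KO cells with VC and below 0 in WT cells without VC, where Rpl39l also falls. Levels are means of log2 of CPM plus 0.5, so Rpl39l falls less here than by its edgeR log2 fold change.

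The change of RP genes from day 0 to day 4 of dox was greater with VC than without it in both lines. In D/KO cells, the change from day 0 was greater with VC than without it for 32 members and smaller for 0 (background 13.5% and 13.3%), with a median difference of 0.51. Rpl13a (1.46, adjusted p = 6.29e-07), Rpsa (1.16) and Rps3 (0.91) led those called. In WT cells 23 members had a greater change with VC and 0 a smaller one (background 7.16% and 8.17%), with a median difference of 0.50, led among those called by Rpl39l (1.67), Rpl9 (0.84) and Rps12 (0.80). Rpl39l lay near the floor there, at means of 1.075 and 0.438 CPM at days 0 and 4 and 1.196 and 1.556 CPM with VC. At day 2 the same difference was called for 11 members in D/KO cells, all higher (background 6.83% and 7.62% lower; median 0.40). It was called for 0 members in either direction in WT cells (background 2.55% and 2.97%; median 0.15), where 1 member had an unadjusted p under 0.05 and DESeq2 called 1. With the share of short non-RP genes as a term these counts were 53 and 33 higher at day 4, and 38 and 18 at day 2, with 0 lower in each. With library totals 58 and 59 members had a greater change with VC at day 4 in D/KO and WT cells (21.7% and 19.3% of all genes), and with no filter 52 and 43 (6.66% and 3.68%). A fit of only the 4 groups gave 9 in D/KO cells, near its background of 8.89%, and 56 in WT cells (12.7%). At day 2 in D/KO cells library totals gave 36, no filter 32 and DESeq2 20. In D/KO cells the day 4 count was 49 without D/KO day 4 replicate 2, 19 without D/KO day 4 replicate 3 and 21 without D/KO day 4 plus VC replicate 3. The D/KO day 2 count was 7 without day 0 replicate 3, 6 without day 2 replicate 3 or day 2 plus VC replicate 2, and 5 without day 0 plus VC replicate 1. The WT count was 9 without day 0 replicate 2 or day 0 plus VC replicate 2, 10 without day 4 plus VC replicate 2, and 13 without day 4 replicate 2 or 3, day 0 plus VC replicate 3 or day 4 plus VC replicate 3. Marker genes and induced factors moved in the same contrasts at day 4. In D/KO cells fibroblast markers were called higher in 2 and lower in 7 of 10 (median -1.14), endothelial markers higher in 4 and lower in 1 of 5, macrophage markers lower in 2 of 6, and the 4 reprogramming factors higher in 2 (median 0.74). In WT cells fibroblast markers were higher in 2 and lower in 5 (median -0.44), endothelial markers higher in 1 and lower in 1, macrophage markers lower in 1, and the factors higher in 2 (median 0.59). The part of these in the RP difference was not tested.

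With VC alone at day 0, 2 members were called in D/KO and 5 in WT cells. In D/KO cells the RP share was 3.21% to 3.35% with VC and 3.86% to 4.21% without it, a ratio of 0.823 with no overlap. There, Rpsa fell by 0.42 on the log2 scale (adjusted p = 0.0237) and Rps4l rose by 0.38 (adjusted p = 0.0306), the 1 lower and the 1 higher call (background 14% and 12.1%). In WT cells 5 members, Rpl38, Rpl28, Rps28, Rpl10 and Rpl41, were called higher and 0 lower (background 15.1% and 14.4%). These shares are below the background, which in WT cells does not hold under other processing. There 24 members were higher in a fit of only the 2 groups and 20 with no filter, where 19.3% and 7.32% of all genes were, and 9 by DESeq2. The same fits called 0, 6 and 2 in D/KO cells. The D/KO count was 0 without day 0 replicate 3 or day 0 plus VC replicate 1 and 1 without day 0 plus VC replicate 3. The WT count was 0 without day 0 replicate 1, day 0 replicate 3 or day 0 plus VC replicate 1, 1 without day 0 plus VC replicate 3 and 13 without day 0 plus VC replicate 2. Scaling by library totals, under which the median of all genes was -0.29 in WT and -0.18 in D/KO cells, gave 5 lower and 0 higher in WT cells and 18 lower and 0 higher in D/KO cells. The WT members then had a median of -0.086, so relative to all genes they stayed higher, as under TMM. A fit with the short gene share gave 1 higher and 12 lower in D/KO and 16 higher and 0 lower in WT cells. The shares of all genes called in that fit and with library totals are not given here. Fibroblast markers (10 of 10 above 1 CPM) summed to 80070 to 119000 CPM without VC and 183600 to 253200 CPM with it in D/KO cells. The WT sums were 52060 to 53830 CPM and 155600 to 171400 CPM. Endothelial markers (5 of 5 above 1 CPM) summed to 586 to 710 CPM and 215 to 256 CPM in D/KO cells. The part of these in the RP values was not tested.

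The change with dox and VC at day 4 was greater in D/KO than in WT cells for 12 members and smaller for 0 (background 13.9% and 15.5%), with a median difference of 0.39. The share of members, 12 of 81, is near that background. It lies above it with library totals (28 members, 17.6% of all genes) and with no filter (33 members, 6.82%). Rps29 (0.76, adjusted p = 0.0415), Rpl13a (0.74, adjusted p = 0.0049) and Rpl39 (0.74, adjusted p = 0.0268) differed most among those called, and Rpl7l1 had the lowest adjusted p (0.61, adjusted p = 0.000385). Rpl7l1 is a nucleolar relative of Rpl7. Without VC, the difference was called for Rpl21 (0.61) and Rps4l (0.71), and for 0 members in the other direction (background 7.27% and 7.04%; median 0.39). Here too library totals gave 22 (12.1% of all genes) and no filter 24 (3.92%), while DESeq2 and a fit of only the 4 groups gave 4. With the share of short non-RP genes as a term, 1 member was called higher and 2 lower with VC, and 0 higher and 3 lower without it. The count with VC was 38 without D/KO day 4 plus VC replicate 1, 24 without WT day 0 plus VC replicate 2 and 21 without D/KO day 0 plus VC replicate 2. It was 6 without D/KO day 0 plus VC replicate 1 or 3, D/KO day 4 plus VC replicate 2 or WT day 4 plus VC replicate 1, and 4 without D/KO day 4 plus VC replicate 3 or WT day 0 plus VC replicate 1. The count without VC was 19 without D/KO day 4 replicate 3, 5 without D/KO day 0 replicate 3, and 1 without D/KO day 0 replicate 1 or 2, D/KO day 4 replicate 1 or 2, WT day 0 replicate 2 or 3, or WT day 4 replicate 2 or 3. In the contrast with VC, fibroblast markers were called lower in 8 of 10 and higher in 0 (median -1.385). Endothelial markers were higher in 1 and lower in 2 of 5, and macrophage markers lower in 2 of 6. Without VC, fibroblast markers were lower in 7 of 10 and higher in 0 (median -1.036), and endothelial markers lower in 1 of 5. The part of these in the RP differences was not tested.

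Before dox, RP genes differed between the 2 reprogramming lines, 3 of them by more than the rest. In D/KO cells 33 members were higher and 4 lower than in WT cells at day 0 (background 22.1% and 21.1%), with a median of 0.29. Rpl29, a large subunit protein whose loss slows growth in mice, had 10.4, 11.6 and 10.8 CPM in D/KO and 187, 213 and 200 CPM in WT libraries, and the groups do not overlap (log2 fold change -4.19, adjusted p = 2.28e-18). It lay between 7.38 and 16.8 CPM in all 18 D/KO reprogramming libraries and between 150 and 385 CPM in the 18 WT ones. Untreated ERCC1 d/- cells of the inhibitor set, another line with the same kind of Ercc1 allele, had 285, 240 and 240 CPM, so the low level was not seen in them. Rpl26, which binds the p53 mRNA after DNA damage, had 427, 421 and 423 CPM in D/KO and 177, 182 and 173 CPM in WT cells, again without overlap (1.26, adjusted p = 4.09e-08). The 4FJ OCT4-GFP cells labelled TGFB, of the same genotype, sex and age labels as the WT line, had 192, 191 and 174 CPM, close to that line and below every other group of the inhibitor set. Levels in the 2 sets were scaled separately.

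Rpl39l showed the third such pattern. It had 7.61, 10.7 and 12.6 CPM in D/KO and 0.663, 1.24 and 1.33 CPM in WT cells at day 0, with no overlap (log2 fold change 3.24, adjusted p = 1.54e-11). In the inhibitor set the order of genotypes was the other way round, with 3.62, 2.20 and 2.42 CPM in untreated D/KO cells and 21.7, 13.9 and 26.3 CPM in WT tail tip cells (-2.88, adjusted p = 2.44e-06). The other members lower in D/KO reprogramming cells were Rps4l (-0.81), Rpl34 (-0.67) and Rps18 (-0.53). The X-linked members did not pass the test between the male D/KO and female WT cells, with log2 differences of 0.20 for Rpl10, 0.20 for Rpl36a, 0.25 for Rpl39 and 0.30 for Rps4x (adjusted p = 0.355, 0.324, 0.277 and 0.0788). Without WT day 0 replicate 1 the count over both directions was 24. With library totals as the scale it was 11 higher and 9 lower, where the median of all genes was -0.22, and with the short gene share as a term 57 higher and 4 lower. Endothelial markers (5 genes) summed to 586 to 710 CPM in D/KO cells at day 0, with 5 above 1 CPM, and to 14.6 to 17.3 CPM in WT cells, with 1 above it. Macrophage markers (6 genes) summed to 13.4 to 14.2 CPM and 77.8 to 150 CPM, with 2 and 6 above 1 CPM. The part of these cells in the RP differences was not tested.

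**Figure D4:**
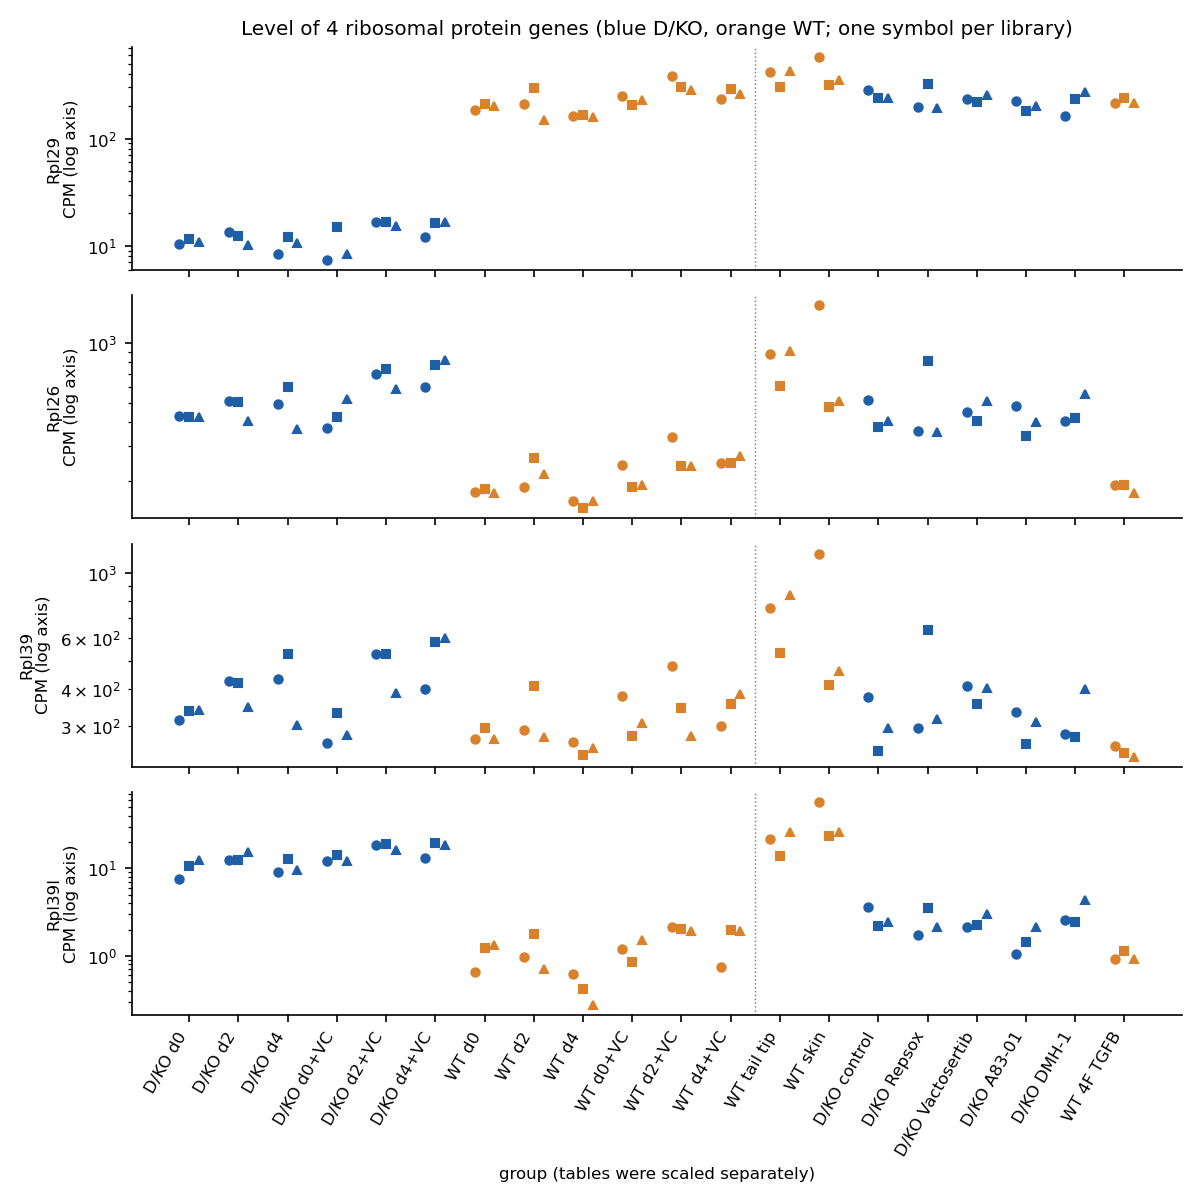
CPM of Rpl29, Rpl26, Rpl39 and Rpl39l (log axis) in each library of the 20 groups. Rpl29 lies between 7.38 and 16.8 CPM in every D/KO reprogramming library and at 150 CPM or more in every WT one, and Rpl39l is about 1 CPM in WT cells at day 0 against 7.61 to 12.6 CPM in D/KO cells.

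Paralogs took changing shares of the reads of their pair. Rps27l made up 36.6% ± 1.30 (SD, n = 3) of the CPM of Rps27l and Rps27 together in D/KO cells at day 0 with VC and 27.4% ± 0.481 at day 4. Rps27l itself had a log2 change of -0.03 (adjusted p = 0.908), while Rps27, its parent in the small subunit, rose by 0.58 (adjusted p = 0.0147). The libraries of the 2 days do not overlap in this share. In WT cells with VC the share was 30.2% ± 1.5 at day 0 and 25.9% ± 2.13 at day 4. It was 21.2% ± 0.670 in untreated WT tail tip cells, 33.5% ± 1.38 in untreated D/KO cells of the inhibitor set, and highest in the cells labelled TGFB at 49.4% ± 0.827.

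Rpl22l1, which with Rpl22 acts on splicing and T cell development, differed from its parent in its calls at day 4, and the difference between them was not tested. At day 2 with VC in D/KO cells both rose, Rpl22 by 0.74 and Rpl22l1 by 0.51. At day 4 with VC in D/KO cells Rpl22 rose by 0.65 (adjusted p = 5.63e-05) and Rpl22l1 had a log2 change of 0.28 (adjusted p = 0.175). Its share of the pair was 18.5% ± 2.12 at day 0 and 14.9% ± 0.672 at day 4. Rpl7l1 (0.61, adjusted p = 6.5e-07) and Rpl7 (0.71, adjusted p = 3.18e-06) rose to a like extent, at 7.66% ± 0.410 and 7.17% ± 0.109. Rps4l took 5.42% ± 0.358 of the reads of Rps4l and the X-linked Rps4x in WT and 2.60% ± 0.362 in D/KO cells at day 0. Rpl39 rose by 0.86 (adjusted p = 0.000143) with VC in D/KO cells, where Rpl39l had a log2 change of 0.39 (adjusted p = 0.14). Paralogs share sequence with their parents, and how the counting treated reads that map to both is not given in the sources used here.

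**Figure D5:**
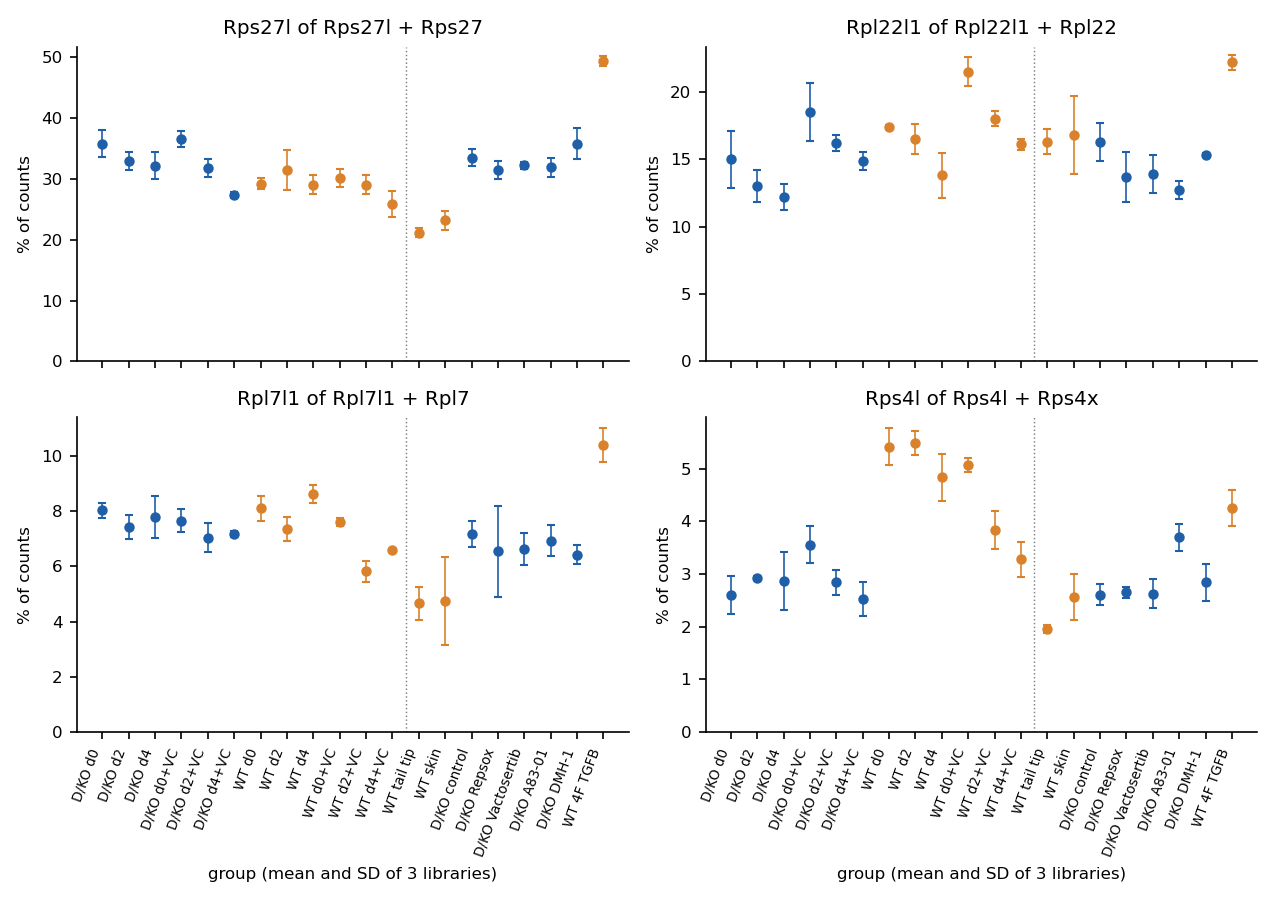
Share of a paralog in the summed CPM of paralog and parent (percent, mean ± SD over 3 libraries) for Rps27l, Rpl22l1, Rpl7l1 and Rps4l in the 20 groups. The Rps27l share is 49.4% in the cells labelled TGFB and falls from 36.6% to 27.4% from day 0 to day 4 in D/KO cells with VC.

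Few RP genes were called with inhibitors of TGFb family receptors in D/KO cells. Repsox, Vactosertib and A83-01 block the TGFb type I receptor ALK5, and DMH-1 blocks the BMP type I receptor ALK2. The authors describe Vactosertib as an inhibitor of ALK2 as well. Repsox and Vactosertib were given at one concentration, and A83-01 and DMH-1 at another that was higher. Against untreated D/KO cells, 0 members were called in either direction with Repsox (background 13.4% higher and 11.8% lower), with Vactosertib (11.8% and 10.3%) or with DMH-1 (5.96% and 3.79%). At an unadjusted p under 0.05 there were 3, 1 and 0 members, and DESeq2 also called 0 in each. The median log2 fold changes were 0.09, 0.08 and -0.02. Without Repsox replicate 2, which had the high RP share, 13 members were called lower with Repsox and 0 higher. With no filter 1 was called higher with Repsox, and a fit of only the 2 groups called 3 higher and 1 lower with Vactosertib. Fibroblast markers (10 of 10 above 1 CPM) summed to 79200 to 84480 CPM in untreated cells. These sums were 40600 to 48200 CPM with Repsox, 49090 to 52570 CPM with Vactosertib and 68140 to 85770 CPM with DMH-1. Their part in the RP values was not tested.

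With A83-01, 4 members were lower and 0 higher (background 16.2% and 16.4%), with a median of -0.23. Rpl13a had 69.2, 54.6 and 52.5 CPM in untreated cells and 34.5, 26.7 and 31.2 CPM with A83-01, with no overlap (log2 fold change -0.93, adjusted p = 0.00461). Rpl15, one of the core genes with the TOP start shown above, had 535, 458 and 481 CPM and 338, 302 and 347 CPM (-0.58, adjusted p = 0.0175), again without overlap. Rpsa (-0.64, adjusted p = 0.045) and Rpl7l1 (-0.28, adjusted p = 0.0346) were the other 2. The count was 1 without untreated replicate 1 or A83-01 replicate 2, and 2 without untreated replicate 3. A fit of only the 2 groups called 29 lower and 1 higher, library totals 1 lower and a fit of all 24 libraries 2 lower. The shares of all genes called in these fits, and in the one with the short gene share below, are not given here. With the share of short non-RP genes as a term, which was 1.33, 1.27, 1.27 and 1.08 times that of untreated cells with Repsox, Vactosertib, A83-01 and DMH-1, members called lower numbered 68, 59, 77 and 27, and 0 were called higher. Fibroblast markers summed to 79200 to 84480 CPM in untreated cells and 42380 to 45070 CPM with A83-01. Endothelial markers summed to 290 to 332 CPM and 141 to 181 CPM, and Schwann cell and melanocyte markers to 8.09 to 10.8 CPM and 33.2 to 40.8 CPM. Mitochondrial reads were 0.511% to 0.909% and 1.10% to 1.29% of counts. The part of these in the RP values was not tested.

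The compounds were compared at matched concentration in 2 pairs, with p-values adjusted over all genes. Repsox and Vactosertib, both ALK5 inhibitors, differed in 0 members (0 in each direction at an adjusted p under 0.05, background 0% and 0%). The 95% interval of the log2 difference was -0.47 to 0.39 for Rplp0, -0.48 to 0.51 for Rpsa and -0.46 to 0.28 for Rpl15, and differences inside these intervals could not be told from 0 here. A83-01 stood below DMH-1 in 2 members and above it in 0 (background 13.4% and 11.9%), with a median difference of -0.19. Rpl15 had 469, 433 and 493 CPM with DMH-1, above its 3 A83-01 values (log2 difference -0.50, interval -0.88 to -0.13, adjusted p = 0.0454). Rpl39l had 2.57, 2.43 and 4.38 CPM with DMH-1 and 1.04, 1.45 and 2.14 CPM with A83-01 (-0.99, interval -1.74 to -0.25, adjusted p = 0.0467). Both calls sit near the threshold. A fit with the short gene share called 75 members lower with A83-01, and a fit of only the 2 groups called 11. No filter gave 5, and library totals, all 24 libraries or at least 10 counts in every library gave 0. Either 0 or 1 member was called when any of the 6 libraries was left out, with 0 without DMH-1 replicate 1 or 3 or A83-01 replicate 1 or 2, and 1 without DMH-1 replicate 2 or A83-01 replicate 3.

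Untreated D/KO cells had fewer RP reads than untreated WT tail tip cells. Of the members, 53 were called lower and 0 higher (background 18.9% and 21.3%), 20 in the small subunit, 32 in the large subunit and 1 paralog, with a median of -0.70. The RP share was 5.23%, 4.01% and 4.15% in D/KO and 7.52%, 5.32% and 8.40% in WT libraries, which do not overlap, and the share of short non-RP genes was 0.778 times the WT value. Rps29, a zinc-binding protein of the small subunit, had 139, 78.8 and 123 CPM against 328, 224 and 430 CPM (log2 fold change -1.51), with no overlap. Rps28, another protein of the small subunit, had a log2 fold change of -1.36. Rpl13a (0.41, adjusted p = 0.164), Rps6 (-0.46, adjusted p = 0.116) and Rpl5 (-0.52, adjusted p = 0.0691) did not pass the test. The count was 22 without WT replicate 3 or D/KO replicate 2, 25 without D/KO replicate 3 and 27 without WT replicate 1. A fit of all 24 libraries called 32, all lower. Fitted with the short gene share, 42 members were lower and 4 higher. Endothelial markers (5 genes, all above 1 CPM in both) summed to 290 to 332 CPM in D/KO and 73.4 to 91.2 CPM in WT cells, and their part in the RP difference was not tested. Age also differs between these cells (4 and 14 weeks) and cannot be told apart from genotype.

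Between WT skin and WT tail tip cells 1 member was called. Rpl13a was higher in skin (0.81, adjusted p = 0.0299) and 0 members were lower (background 18.1% and 16.1%), with a median of 0.05. Rpl13a had 125, 53.5 and 55.9 CPM in skin and 49.6, 34.0 and 50.3 CPM in tail tip cells, so all 3 skin libraries were higher. Without skin replicate 1, 21 members were lower in skin and 0 higher, with a median of -0.51. Without skin replicate 2 or 3 the count was 3 higher, and without tail tip replicate 2 it was 0. It was also 0 with library totals or a fit of only the 2 groups, 2 higher with no filter, and 16 higher and 11 lower with the short gene share as a term. Skeletal muscle markers (7 genes) summed to 123 to 152 CPM in skin and 16.1 to 21.3 CPM in tail tip cells, with 3 and 2 above 1 CPM. Endothelial markers (5 of 5 above 1 CPM in both) summed to 167 to 241 CPM and 73.4 to 91.2 CPM. The part of these in the RP values was not tested. The cells labelled TGFB have no control of their own in the inhibitor set and entered no test. Their RP shares were between 3.02% and 3.29%, the lowest of the 8 groups.

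Most genes of the nucleolar and translation factor lists rose in D/KO cells at day 4 with VC, where 27.9% of all genes were called higher and 26.2% lower. Of 20 genes for nucleolar assembly and rRNA synthesis, 18 were higher and 0 lower, with a median of 0.92. Dkc1, which modifies rRNA, rose by 1.73, Npm1 by 1.67 and Rrs1 by 1.29. Of 5 elongation factor genes all 5 rose, among them Eef1b2 (1.10), Eef2 (0.97) and Eef1g (0.89), and of 21 genes for eIF3 and other TOP mRNAs 19 rose and 0 fell, among them Eif4b (1.38) and Eif3l (1.04). Rack1, a ribosome protein outside the naming rule, rose by 0.78, the 1 call among 4 such genes. Of 19 mTOR pathway genes 5 were higher and 7 lower, counts near that background, among them Deptor (2.65), an mTOR inhibitor, Sesn2 (-0.72), a stress-induced inhibitor of the pathway, and Mtor (0.68). Myc, one of the induced factors, went from between 30.955 and 39.787 CPM at day 0 with VC to between 308 and 376 CPM at day 4.

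Genes of the mitochondrial ribosome had smaller median changes than the RP genes in D/KO cells with VC, and no test compared the 2 lists. Of 77 such genes, 29 were higher and 5 lower in D/KO cells at day 4 with VC (median 0.22, background 27.9% and 26.2%). In WT cells at day 4 with VC 4 were higher and 23 lower (median -0.19, background 22.7% and 22%), and without VC 0 were higher and 17 lower (median -0.29, background 11.7% and 12.8%). In WT cells without VC, 46 of the 77 were lower at day 4 than at day 2 and 0 higher (median -0.46, background 12.3% lower), beside 65 of 81 cytosolic RP genes. With A83-01, 10 of the 20 nucleolar genes were lower and 0 higher (median -0.36, background 16.2% lower), beside 4 of 81 RP genes, and 0 of the 77 mitochondrial genes were called. In untreated D/KO against WT cells, where 53 RP genes were lower, 5 of the 20 nucleolar genes were higher and 1 lower, where 21.3% and 18.9% of all genes were. Among 4 genes of the p53 response to free RPs, Mdm4 (-0.96) and Mdm2 (-0.40) were lower and Trp53 (0.35) higher in D/KO cells at day 4 with VC.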

How the data were processed

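The deposited tables hold raw counts of reads per gene, which the authors made with FastQC, Trim Galore, HISAT2 and featureCounts (Subread) on GRCm39, per the submitters' processing notes, where no version is named. The deposited Length column gives the summed exon bases of a gene. It was used for TPM and to sort protein-coding genes into short and long ones. The shares of counts in those genes, and the fits with the short gene share as a term, therefore rest on it. Symbols came from GENCODE M39, in which 56236 of 56980 identifiers (98.69%) were found.

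Counts were scaled by TMM and tested in R 4.3.3 with edgeR 4.0.16 (two-sided quasi-likelihood F-test, filterByExpr at its settings of 10 for min.count and 15 for min.total.count), in 1 fit of 36 reprogramming libraries (15832 genes), 1 of 18 inhibitor libraries (15164) and 1 of all 24 inhibitor libraries for skin against tail tip (15652). P-values were adjusted by Benjamini-Hochberg over all genes of a contrast, and a member was called at an adjusted p under 0.05. CPM values use the TMM-scaled totals. Shares of counts use plain totals. Over 60 pairs of replicates 0 were identical, and their variance was 15.8 times counting noise in the median (3.25 to 397), so spread between libraries, not depth, set the precision.

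The alternatives were DESeq2 1.42.0, library totals with no scaling factor, a stricter filter (10 counts or more in each library) or none, only the groups compared, all 24 inhibitor libraries, day 0 without VC as the baseline and, in turn, leaving out 1 library. The share of counts in protein-coding genes under 1500 bases that are not RP genes as a term, the contrasts of VC, that of WT day 4 against day 2 and the TOP search within 3 bases of the start were added after the data were seen. The members and all lists were chosen with earlier results of these data known. Genes named one by one were those with the 3 largest called changes each way in a comparison, the paralogs and their parents, members with a known role, X-linked members, and those with the largest and smallest spread. Members called or not called in full lists of 9 or fewer, and Rpl34 and Rps18 at day 0, were named after their values were seen. Some members are counted but not reported here by name. The edgeR test was also run on counts simulated from the reprogramming fit, for D/KO day 4 against day 0, both with VC. The other contrasts and fits were not simulated.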

Additional observations from a re-analysis of the deposited data

Results flagged for a closer look

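Some RP genes were called in 5 of the contrasts that test a difference of changes, between D/KO and WT cells or with and without VC. The difference between D/KO and WT cells at day 4 was called for 2 members without VC, Rpl21 (0.61 on the log2 scale) and Rps4l (0.71), and for 12 members with VC. Over all genes 7.27% and 13.9% were called in that direction, so the first count lies below the background and the second near it in the main fit. Library totals gave 22 and 28 (12.1% and 17.6% of all genes) and no filter 24 and 33 (3.92% and 6.82%), above the background. With the share of short non-RP genes as a term the medians were -0.18 and -0.055. Among those 12 were Rps29 (0.76), Rpl13a (0.74), Rpl39 (0.74), Rpsa (0.73), Rplp0 (0.66), Rps4l (0.66), Rps25 (0.64), Rps7 (0.62), Rpl7l1 (0.61) and Rpl7 (0.49), each with a greater change in D/KO cells. The difference between the changes with and without VC was called for 11 members in D/KO cells at day 2, 32 in D/KO cells at day 4 and 23 in WT cells at day 4, where 6.83%, 13.5% and 7.16% of all genes were called in that direction. A fit of only the 4 groups gave 9 (8.89%) in D/KO cells at day 4. The D/KO and WT cells also differ in sex, age and line, which cannot be told apart from genotype. No group was examined for a library far from the rest by Dixon's test, since each group has 3 libraries.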

How the results depend on the processing

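No paired analysis was possible because the labels number the libraries in 1 series and share no replicate numbers across groups. The rises with VC in D/KO cells kept their direction under DESeq2, library totals, no filter and with each library left out. With the share of short non-RP genes as a term, members called were 24 (all lower, median -0.24) and 57 (all lower, median -0.46) in D/KO cells at days 2 and 4, 25 and 18 with VC, 3 lower and 37 in WT cells at days 2 and 4, 13 and 16 for VC at day 0 in D/KO and WT cells, 61 for D/KO against WT at day 0, 3 (median -0.18) and 3 (median -0.055) for the D/KO minus WT change at day 4 without and with VC, 68 for Repsox, 59 for Vactosertib, 77 for A83-01, 27 for DMH-1, 75 for A83-01 against DMH-1, 27 for skin (median -0.024), 38, 53 and 18 for the VC difference in D/KO cells at days 2 and 4 and WT cells at day 2, and 30 for WT day 4 against day 2. Rpl36 was then at -0.092 in D/KO cells at day 2, and Rpl32, Rpl10 and Rpl36a at -0.34, -0.29 and -0.28 at day 4. With library totals they were 32 and 30 for D/KO days 2 and 4, 61 for WT day 4 with VC, 18 and 5 (lower, median -0.086) for VC at day 0, 20 for D/KO against WT at day 0, 22 and 28 for the D/KO minus WT change, 1 for A83-01, 0 for A83-01 against DMH-1, 0 for skin (median -0.10), and 36, 58, 1 and 59 for the VC differences. The median of all genes then moved by 0.38 in D/KO cells at day 4 with VC and by 0.31 in WT cells. With no filter they were 22, 18, 37 and 26 for D/KO and WT days 2 and 4, 35 for WT day 4 with VC, 6 and 20 for VC at day 0, 24 and 33 for the D/KO minus WT change, 1 for Repsox, 5 for A83-01 against DMH-1, 2 for skin, and 32, 52, 1 and 43 for the VC differences. With only the groups compared they were 15 and 1 for D/KO days 2 and 4, 59 and 37 for WT day 4 without and with VC, 0 and 24 for VC at day 0, 4 for the D/KO minus WT change without VC, 4 for Vactosertib, 30 for A83-01, 11 for A83-01 against DMH-1, 0 for skin, and 9 and 56 for the VC differences at day 4. DESeq2 called 20 for WT day 2, 9 for VC at day 0 in WT cells, 4 for the D/KO minus WT change without VC, and 20 and 1 for the VC differences at day 2. All 24 libraries gave 2 for A83-01, 0 for A83-01 against DMH-1 and 32 for D/KO against WT controls. At least 10 counts in every library gave 0 for A83-01 against DMH-1, and day 0 without VC as the baseline gave 51 for WT day 4 with VC. The cause of these changes was not tested. With 1 library left out, counts ran from 2 to 10 and 1 to 21 for D/KO days 2 and 4, 60 to 72 and 58 to 76 with VC, 0 to 29 and 0 to 4 for WT days 2 and 4, 17 to 58 and 8 to 31 with VC, 0 to 3 and 0 to 13 for VC at day 0, 24 to 35 for D/KO against WT at day 0, 1 to 19 and 4 to 38 for the D/KO minus WT change, 0 to 13 for Repsox, 1 to 3 for A83-01, 0 to 1 for A83-01 against DMH-1, 22 to 66 for D/KO against WT controls, 0 to 21 for skin, 5 to 13 and 19 to 49 for the VC differences in D/KO cells, 9 to 30 for that in WT cells at day 4, and 19 to 73 for WT day 4 against day 2. They were 0 throughout for Vactosertib, DMH-1, Repsox against Vactosertib and the VC difference in WT cells at day 2. Without D/KO day 4 replicate 2 the count was 3 (median -0.0085), and the median ran up to 0.29 without replicate 3. Without skin replicate 1 it was 21 (median -0.51), without tail tip replicate 2 the median was -0.11, and without skin replicate 2 it was 0.27. Of 998 repeats of 64 results on named genes, 827 stayed on their side of the threshold, 167 fell short of it and 4 turned.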
